A study of Mus musculus with 8 samples.

Results

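Acaa1b, Acot5 and Acot6, 3 genes of peroxisomal fatty acid breakdown, were examined in whole small intestinal (SI) tissue. They were chosen by symbol from a deposited table of 119 genes, each of which the authors had already called different between Smarcad1-KO (KO) and wild-type (WT) mice by DESeq2, a count-based test, at an FDR of 0.05. All 3 were found in the table. A difference between KO and WT in these genes is therefore how they came to be listed, and the tests given here on the same libraries are not independent evidence for it.

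Whole SI tissue of male C57BL/6 mice was opened, washed, frozen and ground before RNA was sequenced, in 4 WT and 4 KO libraries numbered 1 to 4 in each group. The KO mice carried Smarcad1, a chromatin remodeler gene, with loxP sites around exons that code for ATP binding, and Vil-cre, a Cre recombinase under the Villin promoter that acts in the intestinal epithelium. The tissue also held muscle, stromal and immune cells in which Smarcad1 was not deleted. The KO line descended from 1 targeted ES cell clone, and the age of the mice and the floxed or Cre status of the WT controls are not given in the sources used here. In such tissue, fewer cells of a type and less RNA per cell cannot be told apart. The labels do not say that each library came from a separate animal, so p-values measure the spread between these libraries.

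Peroxisomes shorten fatty acids that mitochondria handle poorly, such as very long and methyl-branched chains, by beta-oxidation of their coenzyme A (CoA) esters. Acaa1b is a thiolase that carries out the last step of each round, cutting the chain to release acetyl-CoA. Acot5 and Acot6 are acyl-CoA thioesterases, which split CoA esters into free fatty acid and CoA; Acot5 acts on medium-chain and Acot6 on methyl-branched esters such as phytanoyl-CoA. Acaa1b and several Acot genes are known targets of PPAR alpha, a nuclear receptor activated by fatty acids, which is active in enterocytes.

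In mouse genome build GRCm38, Acaa1b (ENSMUSG00000010651.4) lies on chromosome 9 at chr9:119148023-119157093, minus strand, and its first annotated transcript has 12 exons. Acot5 (ENSMUSG00000042540.12) lies at chr12:84069325-84076020 and Acot6 (ENSMUSG00000043487.4) at chr12:84100654-84111349, both on the plus strand and both with 3 exons. Acot5 and Acot6 are neighbours, 24633 bp apart, at one end of a cluster of 6 thioesterase genes that runs over 123.5 kb in the order Acot2, Acot1, Acot4, Acot3, Acot5 and Acot6. Acot1 to Acot4 and Acaa1a, the near copy of Acaa1b, were not among the 119 listed genes and were not analysed here.

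**Figure D1:**
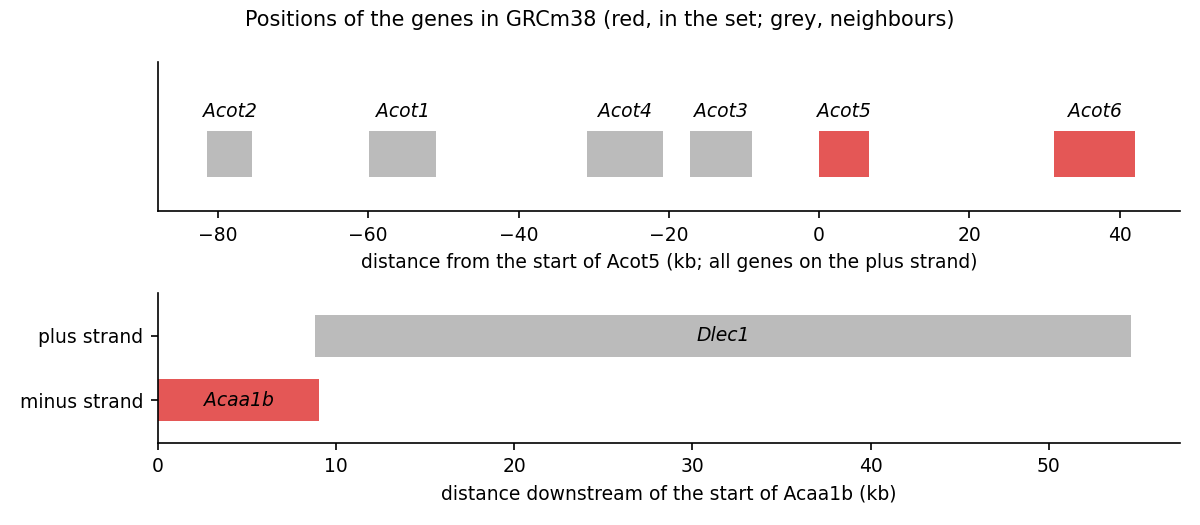
Annotated positions of the genes; the upper axis is the distance from the start of Acot5 and the lower axis the distance downstream of the start of Acaa1b, both in kb. Acot5 and Acot6 sit next to each other at one end of the cluster, and the 3' end of Acaa1b overlaps that of Dlec1 on the other strand by 224 bp.

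The coding sequences show how close the genes are to their relatives, which matters because only uniquely mapped reads had been counted. Acaa1b and Acaa1a each have 1275 coding bases, of which 1231 (96.5%) are the same. Acot5 and Acot6 share 962 of 1255 aligned coding bases (76.7%), and Acot5 is closest to Acot3 in the cluster, at 85.4%. The first 90 coding bases of both pairs are shown from the annotated GRCm38 transcripts, 5′ to 3′, with capitals where the pair differs.
Acaa1b: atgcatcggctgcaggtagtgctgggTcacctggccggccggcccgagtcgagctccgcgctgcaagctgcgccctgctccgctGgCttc
Acaa1a: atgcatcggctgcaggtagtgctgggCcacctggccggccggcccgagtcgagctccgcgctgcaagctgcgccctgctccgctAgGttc
Acot5: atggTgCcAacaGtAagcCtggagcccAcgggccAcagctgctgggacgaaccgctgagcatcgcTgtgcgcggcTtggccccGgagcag
Acot6: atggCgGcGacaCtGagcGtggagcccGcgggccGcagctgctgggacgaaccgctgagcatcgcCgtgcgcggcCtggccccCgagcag
In this stretch Acaa1b and Acaa1a differ at 3 bases, and Acot5 and Acot6 at 11.

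Of the 1913 stretches of 50 bases in Acaa1b transcripts, 758 (39.6%) also occur in transcripts of another gene. Of these, 583 (30.5% of all) are in Acaa1a and 175 in the overlapping gene Dlec1. The Dlec1 stretches are the same genomic bases on the other strand, not another copy, so the filter on unique mapping does not bear on them. The share with any other gene is 22.1% of 1515 stretches for Acot5, most often with Acot3 and Acot1, and 3.79% of 6362 for Acot6. Reads that map equally well to both copies would have been discarded by the authors' filter, and how far this lowered the level of each gene was not tested. The read length of these libraries is not given in the sources used here, and the 50 bases were chosen as an example.

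The promoters of Acaa1b and Acot5 are shown because both genes rose in KO and Acaa1b and Acot genes are known PPAR alpha targets. Sequences are from RefSeq, build GRCm38.p6, and run 5′ to 3′ from 250 bases before the start to the first 30 bases of the transcript. Capitals mark CCAAT or AGGTCA on either strand (ATTGG and TGACCT are their reverse complements). Acaa1b is chr9:119157064-119157343, minus strand, and Acot5 is chr12:84069075-84069354, plus strand.
Acaa1b: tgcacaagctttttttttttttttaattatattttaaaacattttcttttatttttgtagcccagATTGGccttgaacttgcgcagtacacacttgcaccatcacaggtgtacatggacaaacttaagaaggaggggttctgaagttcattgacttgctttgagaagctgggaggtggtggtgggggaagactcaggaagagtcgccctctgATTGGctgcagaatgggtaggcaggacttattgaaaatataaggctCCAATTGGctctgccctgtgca
Acot5: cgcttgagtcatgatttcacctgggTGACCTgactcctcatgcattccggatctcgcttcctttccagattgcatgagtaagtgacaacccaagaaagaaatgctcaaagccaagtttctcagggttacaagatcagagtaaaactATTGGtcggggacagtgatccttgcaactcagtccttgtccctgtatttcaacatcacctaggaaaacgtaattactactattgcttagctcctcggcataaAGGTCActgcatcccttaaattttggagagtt
CCAAT is a common promoter element, and AGGTCA is the core motif bound by nuclear receptors. The Acot5 window held AGGTCA in both orientations, one beginning 225 and the other 2 bases before the start, and 1 CCAAT match 104 bases before it. The Acaa1b window held 4 CCAAT matches, at 185 and 38 bases before the start and as an overlapping pair just after it, and no AGGTCA. Of 32541 promoter windows of the same length, 15.4% held at least 1 AGGTCA and 36.0% at least 1 CCAAT on either strand. The share of windows with several matches was not counted. The PPAR response element, searched as an exact direct repeat of AGGTCA with 1 base between the copies and held by 0.0369% of windows, and TATAAA, held by 13.1%, were found in neither.

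Values are RPKM, reads per kilobase of a gene and relative to library depth. Multiplied by the genomic span of a gene and by a fitted depth, all 939 values above 0 in the table came out as whole reads within 0.05 of a read. The length used was therefore the span including introns, and the depths were 56981718 to 78026424 mapped reads, of which 0.822% to 1.14% lay in the listed genes. The targeted gene, Smarcad1, fell by 29.5% in mean RPKM, from 0.334 ± 0.0288 to 0.235 ± 0.0308 (SD, n = 4 each), with all KO libraries below all WT libraries (exact two-sided permutation test, p = 0.0286, the smallest that 4 against 4 allows). This value takes in reads outside the floxed exons and from cells without the deletion, so it does not measure the extent of the knockout.

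All 3 peroxisomal genes rose in KO. Mean RPKM was 2.82-fold higher for Acaa1b, 4.72-fold for Acot5 and 2.84-fold for Acot6. In each gene every KO library lay above every WT library; 85 of the 119 genes (71.4%) had groups that did not overlap, and 29 (24.4%) had a ratio of means over 2, as all 3 genes did. By limma, 94 of the 119 genes (79.0%) passed an adjusted p of 0.05, 58 of them (48.7%) higher in KO and 36 (30.3%) lower. With median-ratio size factors, computed from the listed genes themselves, 115 genes passed, 58 higher and 57 lower. Such factors take most genes to be unchanged, whereas these genes were selected for a difference. In the table, 58 genes (48.7%) had all KO above all WT libraries. With 3 of 3 genes called higher against a background of 48.7% in a table selected for such differences, the count describes the genes and is no result about them as a group. The median log2 difference was 1.13 for the 3 genes and 0.72 for the 59 genes with a higher mean in KO, and the median ratios were 2.84 and 1.97. Among these 59 genes the ratios of Acot5, Acot6 and Acaa1b ranked 9, 15 and 16.

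**Figure D2:**
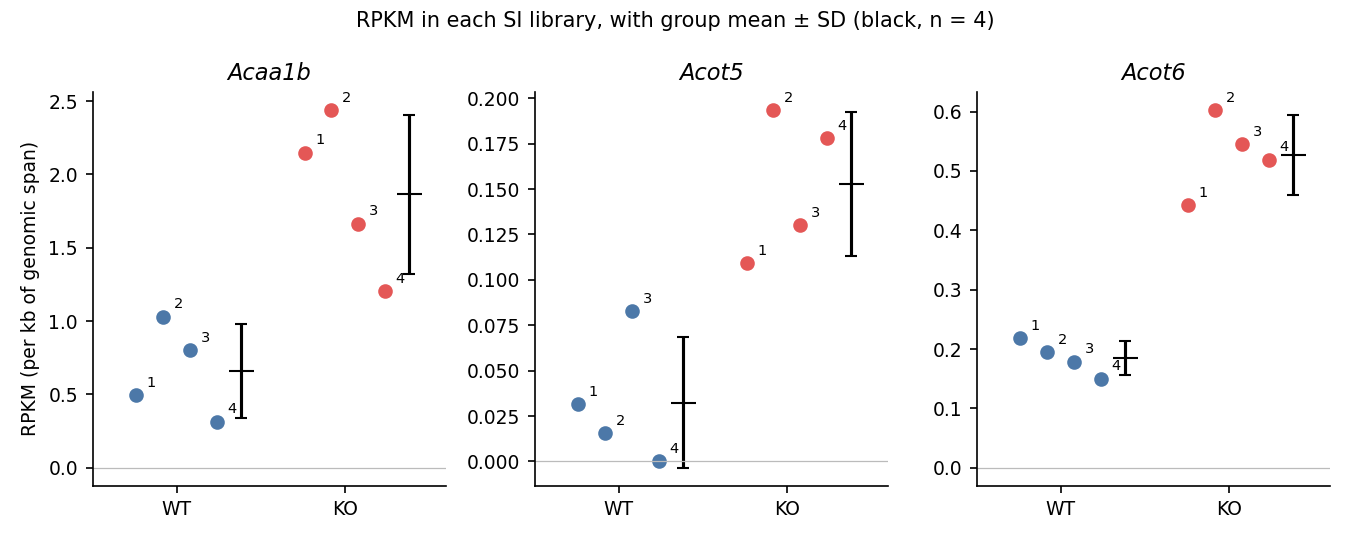
RPKM per kb of genomic span in each library (points, numbered by replicate; blue WT, red KO) with the group mean ± SD in black (n = 4), on a separate linear axis for each gene. All KO points lie above all WT points in each panel; the gap is narrowest for Acaa1b, where KO4 (1.21) is close to WT2 (1.03), and the lowest Acot5 point is 0.

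WT libraries 1 to 4 had 0.495, 1.03, 0.802 and 0.315 RPKM of Acaa1b, and KO libraries 1 to 4 had 2.15, 2.44, 1.66 and 1.21 RPKM. WT2 and WT3 were high and WT4 low among WT, while KO4 was the lowest KO library and stood only 1.17-fold above WT2. The groups did not overlap. The mean rose from 0.660 ± 0.318 to 1.86 ± 0.544 RPKM (SD, n = 4 each), a log2 difference of 1.43 ± 0.32 (SE, limma adjusted p = 0.00400). Between 201 and 543 reads per library stood behind the WT values and 853 to 1440 behind the KO values. Here and below, a log2 difference is KO minus WT on log2(RPKM + 0.1), which understates the difference of genes with low RPKM.

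Acot5 was near 0 in WT, with 0.0315, 0.0154, 0.0826 and 0 RPKM in libraries 1 to 4. These came from 12, 6, 35 and 0 reads, and the 0 reads of WT4 allow up to 0.00637 RPKM (3 reads). In KO libraries 1 to 4 Acot5 had 0.109, 0.194, 0.130 and 0.178 RPKM, from 54, 76, 53 and 93 reads. WT3 was well above the other WT libraries and closest to KO, with KO1 1.32-fold above it, and the groups did not overlap. The mean rose from 0.0324 ± 0.0359 to 0.153 ± 0.0397 RPKM (SD, n = 4 each), a log2 difference of 0.96 ± 0.19 (SE, limma adjusted p = 0.00255). With so few WT reads the size of this difference depended on 1 library and on the processing: without WT3 the ratio of means was 9.77 in place of 4.72, and the log2 difference was 2.34 with a pseudocount of 0.01, 0.16 with 1 and 3.40 by limma's voom on the recovered reads, with adjusted p of 0.00392, 0.0106 and 0.00115.

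For Acot6, WT libraries 1 to 4 had 0.218, 0.195, 0.179 and 0.150 RPKM, and KO libraries 1 to 4 had 0.442, 0.603, 0.545 and 0.519 RPKM. The values were close together within each group, and the lowest KO library, KO1, lay 2.02-fold above the highest WT library, the widest gap of the 3 genes. The mean rose from 0.185 ± 0.0285 to 0.527 ± 0.0668 RPKM (SD, n = 4 each), a log2 difference of 1.13 ± 0.12 (SE, limma adjusted p = 2.01e-04). Behind them were 113 to 133 reads per WT library and 349 to 433 per KO library.

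The call of each gene held in every alternative that gave it a value, although the fitted sizes moved. For Acaa1b the log2 difference ranged from 0.79 to 1.65 and for Acot6 from 0.36 to 1.51, lowest with a pseudocount of 1. No such value was obtained for Acot5 and Acot6 when only genes with a mean of at least 0.5 RPKM were tested, since both lie below it.

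**Figure D3:**
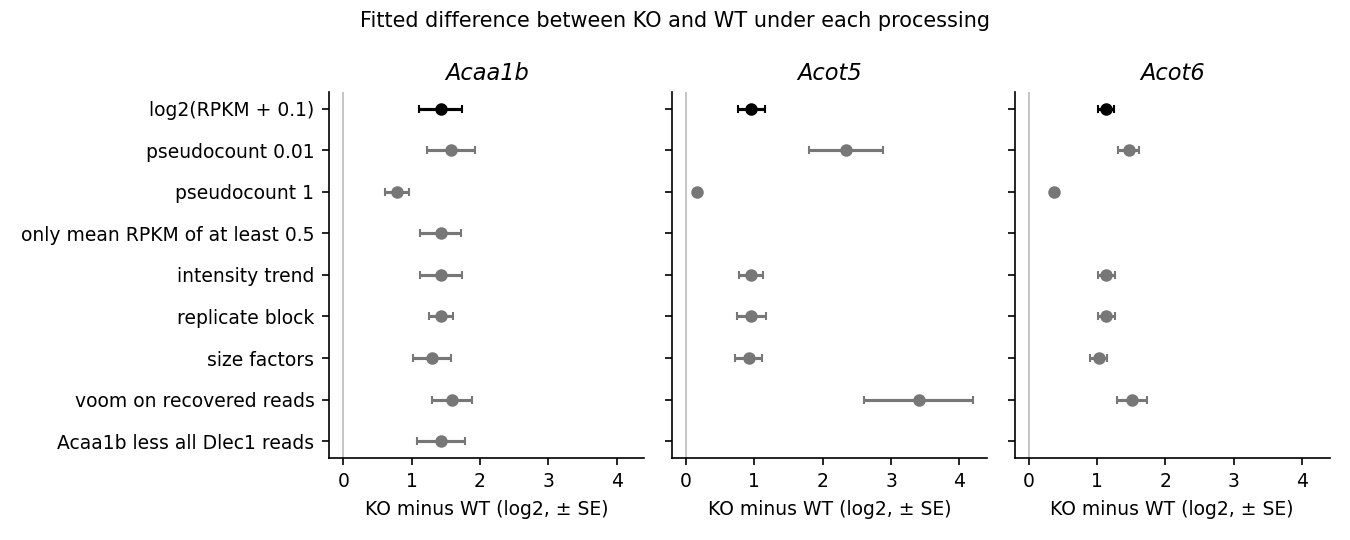
Fitted KO minus WT difference (log2, ± SE) of each gene under the analysis used here (black) and other processing (grey); a missing point means that the setting gave no value or was not run for that gene. All points lie above 0, those of Acot5 ranging from 0.16 with a pseudocount of 1 to 3.40 by voom.

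The spread between libraries of 1 group was wider for Acaa1b than for most listed genes. Its coefficient of variation (CV, the SD as a percent of the mean) was 48.1% in WT and 29.2% in KO, of which counting error alone would give 5.25% and 3.00%. The highest WT library had 3.27 times the RPKM of the lowest, and the highest KO library 2.02 times. Across the listed genes the median CV was 18.4% in WT and 14.1% in KO, and 9 genes had a larger CV than Acaa1b in WT and 11 in KO.

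Acot5 and Acot6 differed in the same respect. Acot6 varied little, with a CV of 15.4% in WT and 12.7% in KO against 9.08% and 5.18% from counting. The Acot5 CV was 110.8% in WT, where counting error alone gives 27.6%, and 26.0% in KO, where it gives 12.1%. The libraries with high values were not the same for the 3 genes: in WT, Acaa1b was highest in library 2, Acot5 in library 3 and Acot6 in library 1. In KO all 3 genes were highest in library 2.

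Levels of different genes were compared per kilobase of merged exon, because introns make up different shares of the 3 genes: exons cover 21.6% of the Acaa1b span and 22.7% of that of Acot5, but most of that of Acot6. On this scale Acaa1b had 3.05 ± 1.47 exonic RPKM in WT and 8.62 ± 2.51 in KO, Acot6 had 0.309 ± 0.0476 and 0.879 ± 0.111, and Acot5 had 0.143 ± 0.158 and 0.673 ± 0.175 (SD, n = 4 each). Acaa1b was the most abundant of the 3 in 8 of 8 libraries, about 9.87-fold above Acot6 in WT and 9.81-fold in KO, or 3.56-fold and 3.54-fold per kilobase of genomic span. Acot6 was above Acot5 in 3 of 4 WT and 4 of 4 KO libraries, but in WT the Acot5 levels spread from 0 to 0.364, further than the gap between the means. In KO the Acot5 and Acot6 ranges, 0.481 to 0.853 and 0.737 to 1.01, overlapped per exonic kilobase, whereas per kilobase of span Acot6 was above Acot5 in 8 of 8 libraries and the KO ranges, 0.109 to 0.194 and 0.442 to 0.603 RPKM, did not overlap. Merged exon is 6413 bp for Acot6, but its first annotated transcript is 3388 bp. These lengths are 1519 and 1518 bp for Acot5 and 1962 and 1689 bp for Acaa1b. The transcript length would raise Acot6 against both, so the overlap and the fold values depend on the length chosen.

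Whether the 3 genes differed in the size of their increase was examined from the log2 ratio of each pair of genes within a library. The KO minus WT difference of this ratio was 0.29 ± 0.37 for Acaa1b over Acot6, 0.47 ± 0.38 for Acaa1b over Acot5 and -0.18 ± 0.19 for Acot5 over Acot6 (SE, on log2(RPKM + 0.1)). None of the 3 pairs passed an exact two-sided permutation test (p = 0.429, 0.286 and 0.486; adjusted p = 0.486 for each), and the errors leave room for unequal increases. With recovered reads plus 0.5 in place of RPKM the differences involving Acot5 turned direction, to -1.75 for Acaa1b over Acot5 and 1.83 for Acot5 over Acot6 (exact permutation test, adjusted p = 0.343 for both), so no order of the increases can be given.

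The neighbours Acot5 and Acot6 were also compared through the share of their summed reads that was Acot5, which needs no pseudocount. In order of replicate number, the share was 8.28%, 4.72%, 22.4% and 0% for WT, and 13.4%, 16.7%, 13.0% and 17.7% for KO. WT ran from 0 of 113 reads in WT4 to 35 of 156 in WT3, on both sides of the KO libraries, which lay close together. Means were 8.86 ± 9.67% in WT and 15.2 ± 2.36% in KO (SD, n = 4 each), a difference of 6.34 percentage points (exact two-sided permutation test, p = 0.286). Without WT3 the difference was 10.9 and without WT4 3.39 percentage points. The exact 95% binomial intervals were 16.2% to 29.8% in WT3 and 0% to 3.21% in WT4; reads are not independent molecules, and such intervals cover counting error only.

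**Figure D4:**
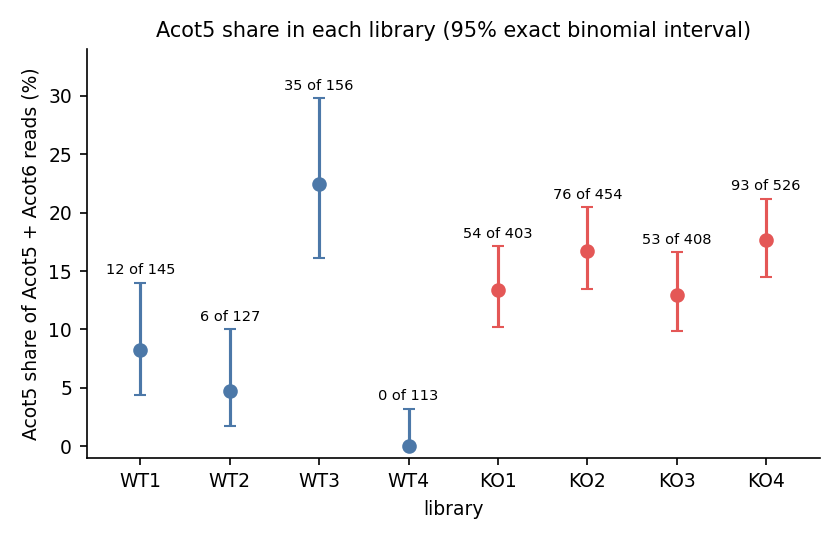
Share of Acot5 in the summed Acot5 and Acot6 reads of each library, in percent, with exact (Clopper-Pearson) 95% binomial intervals and the reads behind each share (blue WT, red KO). WT libraries spread from 0% to 22.4%, while the 4 KO libraries sit between 13.0% and 17.7%.

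Dlec1, a gene named for its loss in lung and esophageal cancer, overlaps Acaa1b. Their 3' ends share chr9:119148023-119148246, 224 bp that are exonic in both genes and make up 11.4% of the Acaa1b exons, and Dlec1 lies on the plus strand. The strandedness of the libraries is not given in the sources used here, so reads in this stretch may belong to either gene. Dlec1 rose from 0.0246 ± 0.00725 to 0.0628 ± 0.00995 RPKM (SD, n = 4 each), a log2 difference of 0.39 ± 0.10 (SE, limma adjusted p = 0.00592), a call lost with a pseudocount of 1 (0.0528, adjusted p = 0.0525).

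In order of replicate number, Dlec1 had 48, 85, 86 and 59 reads in the WT libraries, against 181, 199, 190 and 198 in the KO libraries. If reads fell evenly over Acaa1b exons, 29.2, 62.0, 52.5 and 22.9 Acaa1b reads would lie in the shared stretch in WT and 164, 148, 105 and 97.4 in KO. Dlec1 counts were thus between 1.10 and 2.57 times what even Acaa1b coverage of the stretch would give. Reads that match Acaa1a equally well were not counted, so coverage of the exon parts not shared with Acaa1a, as this stretch is, may lie above the even value. After all Dlec1 reads were taken from Acaa1b in each library, an alternative chosen after seeing the data, the Acaa1b difference was 1.43 ± 0.35 (log2, SE, limma adjusted p = 0.00536). How many Dlec1 reads came from Acaa1b transcripts was not tested.

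Genes of the table whose levels followed those of each peroxisomal gene from library to library were found by Pearson correlation over the 8 libraries after the group means were removed, so that the KO and WT difference did not enter. Each gene was the closest of 118, so the correlations are descriptions and carry no p. Acaa1b was closest to Treh, the brush-border trehalase of enterocytes (r = 0.98, Spearman's rho = 0.98), then to Aldh1a7, an aldehyde dehydrogenase (r = 0.94, rho = 0.83), and Fam108a (r = 0.92, rho = 0.86). Without the 2 libraries farthest from the median of Acaa1b these were r = 0.98, 0.87 and 0.83.

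In order of replicate number, Treh had 4.91, 7.05, 6.09 and 4.24 RPKM in the WT libraries, against 11.9, 13.3, 10.6 and 7.98 RPKM in the KO libraries. Its order over the libraries was that of Acaa1b in both groups: WT2, WT3, WT1, WT4 and KO2, KO1, KO3, KO4. Size factors, a measure of the general level of the listed genes, were 0.825, 1.04, 1.04 and 0.840 for WT1 to WT4. They were 1.06, 0.997, 1.08 and 1.00 for KO1 to KO4. The listed genes in general were thus lower in WT1 and WT4, and whether the shared order remains after these factors was not tested. Treh rose by 0.97 ± 0.20 (log2, SE, limma adjusted p = 0.00269), 1.97-fold in mean RPKM.

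**Figure D5:**
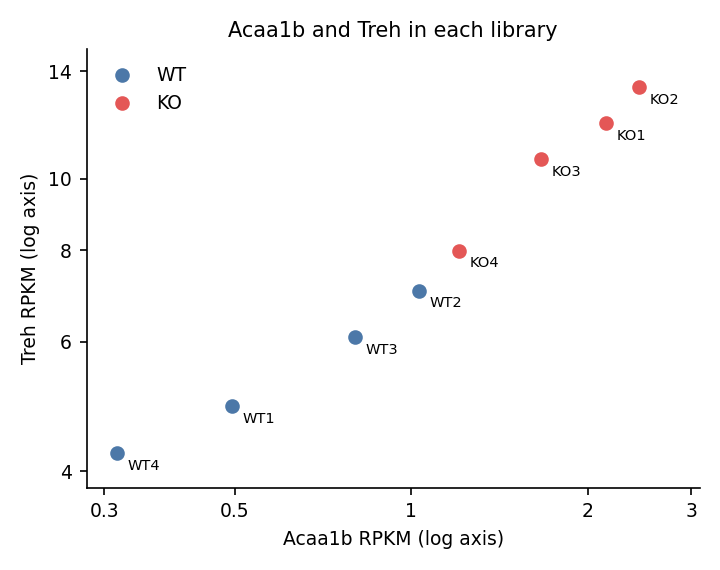
RPKM of Acaa1b against Treh in each library, both on log axes (blue WT, red KO). Within WT and within KO the libraries fall in the same order for both genes, from WT4 to WT2 and from KO4 to KO2.

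For Acot5 and Acot6 the correlations given here were lower. Acot5 was closest to Adcy8, an adenylyl cyclase (r = 0.82, rho = 0.64), Clca6, an enterocyte gene (r = 0.81, rho = 0.57), and Tmod4, a tropomodulin (r = 0.80, rho = 0.81). Without the 2 libraries farthest from the Acot5 median, r was 0.51, 0.22 and 0.73, so the first 2 rest on those libraries. The genes ranked 2 and 3 for Acot6 were Alad, an enzyme of heme synthesis (r = 0.69, rho = 0.57), and the lipid-binding gene Sec14l4 (r = 0.62, rho = 0.45), and r fell to 0.34 and 0.04 without its 2 farthest libraries. Among the peroxisomal genes themselves the within-group r was 0.31 for Acaa1b and Acot5, 0.30 for Acaa1b and Acot6 and 0.48 for Acot5 and Acot6. None of the 3 was among the 3 genes closest to another.

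Of a list of 57 peroxisomal genes, only Acaa1b, Acot5 and Acot6 were in the table, and of 39 further PPAR-responsive genes, such as Cpt1a and Cyp4a10, none was. Because the table was limited to genes under the authors' FDR, this says that the others were not listed, and their levels were not analysed here.

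A list of 45 genes of lipid handling was drawn broadly and took in Irs2 and Paqr5, which are signalling genes. It had 11 in the table, 8 higher in KO, all of them called, and 3 lower, of which 2 were called. Of all 119 listed genes, 79.0% were called, 48.7% as higher and 30.3% as lower, so 10 of 11 called is close to what the selected table gives. The list was also chosen with the table known, so its counts and its median describe picked genes and are no result about lipid handling. Abca1, the cholesterol exporter, rose from 0.209 ± 0.0118 to 0.313 ± 0.0406 RPKM and Acer1, a ceramidase, from 0.580 ± 0.0771 to 0.955 ± 0.0969 (SD, n = 4 each; limma adjusted p = 0.00592 and 0.00178). Sec14l4 had 0, 2, 2 and 2 reads in WT and 17, 97, 82 and 130 in KO. The other higher genes were Lyplal1, Cyp4f16, Sec14l2, Sccpdh and Irs2, with ratios of 1.54 to 1.79. Clps and Pnliprp2, which help digest dietary fat and are known as products of pancreatic acinar cells, fell to 0.727 and 0.643 of their WT means (limma adjusted p = 0.0166 and 0.0106), though which cells in the tissue held their transcripts was not tested, and Paqr5 did not pass (log2 difference -0.12 ± 0.12, SE, limma adjusted p = 0.359). The median log2 difference was 0.59 for these 11 genes (the value of Irs2), 1.13 for the 3 peroxisomal genes and -0.07 over all 119.

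Some of the cell type markers were listed. The marker lists were chosen with earlier results of these data known. How many of their genes were listed, and in which direction, was thus partly set in advance and is no result about a cell type. The table held 10 of 12 Paneth cell markers, all lower in KO and all called, where 30.3% of the listed genes, themselves selected for a difference, were called lower. They had a summed level of 3565 to 4984 RPKM in WT and 2870 to 3795 in KO libraries, ranges that overlap. Sums of markers are per kilobase of span and mostly follow the most abundant gene. For the Paneth markers this was Defa24, with a mean of 2701 RPKM in WT and 2073 in KO. Of 12 enterocyte markers it held Treh, which rose, and Clca6, with 31.2 ± 10.5 RPKM in WT and 25.0 ± 3.52 in KO (SD, n = 4 each; limma adjusted p = 0.256). Their summed level was 24.9 to 51.9 RPKM in WT and 35.2 to 38.1 in KO. Of 7 pancreatic acinar markers the table held 2, Clps and Pnliprp2, at 26.2 to 37.1 RPKM summed in WT and 20.1 to 27.0 in KO, and of 4 kidney proximal tubule markers 1, Kap, at 0.0135 to 0.0276 in WT and 0.0818 to 0.197 in KO. None of 4 goblet cell, 7 hepatocyte, 5 adipocyte or 4 smooth muscle markers was listed, so most of the defining markers of the tissue could not be checked. The part of cell composition in the peroxisomal genes was not tested.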

How the data were processed

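Per the labels and methods, the authors trimmed reads with Trim Galore 0.4.1, mapped them to GRCm38 with HISAT2 2.0.1, counted uniquely mapped reads over merged transcripts in SeqMonk 1.42.0 and tested KO against WT with DESeq2. The authors deposited RPKM for 119 genes under an FDR of 0.05; this FDR and the group means were not used here.

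The genes and lists were chosen with earlier results of these data known. Genes were named by rule: the 3 peroxisomal genes, Smarcad1, Dlec1, listed genes of the lipid and marker lists, and the 3 genes most like each peroxisomal gene; 1 gene is not reported here. Log2(RPKM + 0.1) was fitted across all 119 genes with limma 3.58.1 (R 4.3.3), Benjamini-Hochberg adjusted, and tested on simulated data. Single values were compared by exact permutation tests. Reads were recovered from RPKM, genomic span and fitted depth (smallest depth giving whole reads), and exon lengths came from GENCODE mouse release 21. RefSeq held promoters for Acaa1b and Acot5. Python 3.11.15, scipy 1.17.1 and biopython 1.88 were used. Alternatives were other pseudocounts, a filter on low RPKM, an intensity trend, size factors, voom, exact tests per gene, a replicate block, leaving out each library and, added after seeing the data, subtraction of Dlec1 reads.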

Additional observations from a re-analysis of the deposited data

Results flagged for a closer look

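Among 78 groups of 4 libraries of the named genes and ratios, 2 had a library far from the others by Dixon's test, where chance alone gives about 3.9 (1 in 20). The log2 ratio of Acot5 to Acot6 in WT3 was -0.61, while the other WT libraries had -1.28, -1.35 and -1.32 (gap over range 0.897). These ratios are on RPKM + 0.1, and the added 0.1 exceeds the Acot5 RPKM of every WT library (at most 0.0826). The closeness of WT1, WT2 and WT4 is thus set in part by the pseudocount. Their Acot5 shares of the summed reads, which need none, were 8.28%, 4.72% and 0%, against 22.4% in WT3. Cyp4f16, a cytochrome P450 of fatty acid hydroxylation, had 11.1 RPKM in KO3 and 8.73, 8.49 and 8.50 RPKM in KO1, KO2 and KO4 (gap over range 0.908).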

How the results depend on the processing

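The calls of Acaa1b, Acot5 and Acot6 kept their direction and side of the threshold under each alternative that gave a value, 17 for Acaa1b and 15 for each of the others. The number of called genes moved from 94 to 56 when only the 77 genes with a mean of at least 0.5 RPKM were tested, fewer genes by construction. Median-ratio size factors, computed from the same selected genes, gave 115 calls, 58 higher and 57 lower, against 58 and 36. Dlec1 was no longer called with a pseudocount of 1 (log2 difference 0.0528, adjusted p = 0.0525). With recovered reads in place of RPKM, the difference in log2 ratio turned from 0.47 to -1.75 for Acaa1b over Acot5 and from -0.18 to 1.83 for Acot5 over Acot6; WT4, with 0 Acot5 reads, enters both. Levels over all libraries were 5.84 for Acaa1b, 0.408 for Acot5 and 0.594 for Acot6 per kilobase of exon, and 1.26, 0.0925 and 0.356 per kilobase of span. Spearman correlation kept 4 of the 9 most alike genes.

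Leaving out 1 library at a time gave 86 to 99 calls. The log2 difference was 1.17 to 1.65 for Acaa1b, 0.83 to 1.12 for Acot5, 1.07 to 1.20 for Acot6 and 0.35 to 0.41 for Dlec1, and the Smarcad1 difference was -0.112 to -0.0854 RPKM. The difference in log2 ratio was 0.10 to 0.50 for Acaa1b over Acot6, 0.30 to 0.75 for Acaa1b over Acot5 and -0.25 to -0.0017 for Acot5 over Acot6, and that of the Acot5 share 3.39 to 10.9 percentage points.

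The sources used here do not say whether libraries with the same replicate number were paired. Their deviations from the group means correlated at 0.27, 0.21, -0.11 and -0.03 over 77 genes, which does not settle it. Acaa1b was highest in library 2 and lowest in library 4 of both groups. A replicate block took the SE of the log2 difference from 0.32 to 0.18 for Acaa1b, from 0.19 to 0.21 for Acot5 and from 0.12 to 0.13 for Acot6. With a replicate block, 90 genes were called, and Acaa1b, Acot5 and Acot6 had adjusted p of 0.00232, 0.0108 and 0.00232. Acot5 and Acot6 gave 0 to 133 reads per WT library, which limits their precision, and a selected table gives no measure of unselected genes.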
